A study of Rattus norvegicus with 10 samples.

Results

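miR-203a-3p, miR-205, miR-184 and miR-375-3p are microRNAs (miRNAs, short RNAs that guide the repression of messages) known from epithelia, and they were followed here through 10 small RNA libraries of rat tissue. They are listed as rno-miR-203a-3p, rno-miR-205, rno-miR-184 and rno-miR-375-3p, 4 of the 723 mature miRNAs in the count files, and were taken by name, each with its largest count over its precursors, together with the 2 other arms of their hairpins, miR-203a-5p and miR-375-5p. The names were chosen by their measured counts in these same libraries, namely high levels in the first library 1 h after stimulation and a low miR-184 after therapy, so levels and fold changes are given as a description. All 4 members, but neither of the other arms, were among the 359 miRNAs that reached 1 cpm (counts scaled to the library total) in 5 or more libraries, on which the fits were made.

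All animals were female Wistar rats with collagen-induced arthritis (CIA), raised by immunisation with bovine type II collagen, and ages are not given in the sources used here. The 5 groups of 2 libraries are rats before therapy (CIA_B), rats 1 h after (MS_E) and 34 days after (MS_A) mechanical stimulation with a thin needle that was inserted and twirled, called acupuncture in the labels, and rats 1 h after (PLA_E) and 34 days after (PLA_A) placebo, an injection of saline into the peritoneum. The labels name the tissue sub-epidermal muscle, the methods of the study describe subcutaneous tissue that includes muscle, and the text of the series also speaks of blood. Nothing says that the libraries of a group came from separate animals, so the errors below measure the spread between libraries, which may be technical. Both treatments were repeated, the stimulation every other day and the saline weekly, so the 34-day groups follow a course of treatment. The placebo was given at another site than the needle, so the arms differ in the site and schedule of the stimulus as well as in its kind. The groups at 34 days and at 1 h also differ in the number of treatments.

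In the skin, miR-203 is known for its rise as keratinocytes leave the basal layer, where it represses p63, the transcription factor of stratified epithelia. miR-205 is known from the basal layer and from the hair follicle, and it restrains ZEB1 and ZEB2, repressors of epithelial genes. miR-184 is best known from the cornea and lens and is also expressed in epidermis, and miR-375 is best known from pancreatic islets and from other neuroendocrine and secretory epithelial cells. Skeletal muscle fibres are not known as a main source of any of them.

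The mature sequences are shown because the seed, bases 2 to 8 from the 5′ end, sets which messages a miRNA pairs with, and because they show whether members share a seed. They are RefSeq sequences of the rat assembly GRCr8, with the seed in capitals.
miR-203a-3p: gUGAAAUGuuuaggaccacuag
miR-205: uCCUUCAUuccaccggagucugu
miR-184: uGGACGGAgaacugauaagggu
miR-375-3p: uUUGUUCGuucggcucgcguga
They are 22, 23, 22 and 22 bases long. The 4 seeds differ from each other, and no other of the 693 mature names in the RefSeq table carries any of them. The loci lie on different chromosomes of GRCr8. miR-203a-3p is at chr6:137020756-137020777 on the plus strand, in Mir203, which lies between Aspg and Kif26a. miR-205 is at chr13:107564588-107564610 on the minus strand, in Mir205, between Camk1g and Plxna2. miR-184 is at chr8:99222991-99223012 on the minus strand, in Mir184, between Ankrd34c and Rasgrf1. miR-375-3p is at chr9:83906591-83906612 on the minus strand, in Mir375, which overlaps Cryba2 and lies between Fev and Cfap65. The counts were made on the older build rn4, and no coordinate of it is given here.

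The hairpins are shown, with the mature arm in capitals, because they place the counted arm. miR-205 lies on the 5′ side of its hairpin and the other members on the 3′ side.
Mir203: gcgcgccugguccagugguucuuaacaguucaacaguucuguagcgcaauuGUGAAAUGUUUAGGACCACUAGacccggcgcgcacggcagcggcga
Mir205: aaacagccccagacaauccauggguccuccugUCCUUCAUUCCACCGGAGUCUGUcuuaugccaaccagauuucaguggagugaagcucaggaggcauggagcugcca
Mir184: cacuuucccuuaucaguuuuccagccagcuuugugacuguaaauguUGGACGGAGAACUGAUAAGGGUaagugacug
Mir375: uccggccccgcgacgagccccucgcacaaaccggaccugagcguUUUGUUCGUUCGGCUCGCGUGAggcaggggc
The other arms were almost without reads. miR-203a-5p held 3 reads in all libraries against 2210 of miR-203a-3p, a share of 0.136% of the reads of both arms (exact 95% binomial interval 0.0280% to 0.396%). miR-375-5p held 0 of 625 reads of its pair, which allows a share of up to 0.48%. These intervals cover counting error only, since reads without molecular identifiers are not independent molecules.

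The miR-203 locus is also read from the opposite strand. Mir3545, the hairpin of miR-203b, overlaps Mir203 on the minus strand, and its arms are shown here because each is the complement of an arm of miR-203a over 20 bases.
miR-203b-3p: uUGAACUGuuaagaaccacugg
miR-203a-5p: aGUGGUUCuuaacaguucaac
These are complements of each other over 20 of the 20 bases that they share. The seed of miR-203b-3p is not that of miR-203a-3p, and the mature sequences also differ outside the seed. In replicates 1 and 2, miR-203b-3p had 0 and 29 reads before therapy, 29 and 7 reads in MS_E with 18 and 12 reads in MS_A, and 32 and 6 reads in PLA_E with 26 and 25 reads in PLA_A, against 13 to 443 reads of miR-203a-3p. Per read of miR-203a-3p it gave 0 to 0.155 reads (median 0.0751 over the 10 libraries), so the sense strand held the larger count in every library. miR-203b-3p was among the miRNAs tested and passed the thresholds described below in no comparison.

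The depth was 1513799 miRNA reads in CIA_B replicate 1 and 3050255 to 8926170 in the other 9 libraries. Levels are cpm after TMM scaling in edgeR, with factors of 0.675 to 1.41. A count of 0 allows up to 3 counts, or 2.60 cpm in CIA_B replicate 1 and 0.366 to 0.828 cpm elsewhere. In each group 1 library holds far more miR-1-3p and miR-206-3p, miRNAs of striated muscle, than the other, and this division was a term in an alternative fit. MS_E replicate 1 stands apart in the epithelial miRNAs, as described below, and member results that rest on it are given without it. In bulk tissue, fewer cells of a type and less of an RNA per cell cannot be told apart.

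All 4 members were minor miRNAs of this tissue. Together they took 0.00310% of the miRNA reads in CIA_B replicate 1, a median of 0.00929% and 0.0188% in MS_E replicate 1. By level, miR-203a-3p held ranks 117 to 193 of the 359 miRNAs over the libraries, miR-205 ranks 116 to 174, miR-184 ranks 138 to 303 and miR-375-3p ranks 106 to 359. miR-203a-3p and miR-205 thus kept a narrow place in the order, and the place of the other pair varied most.

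**Figure D1:**
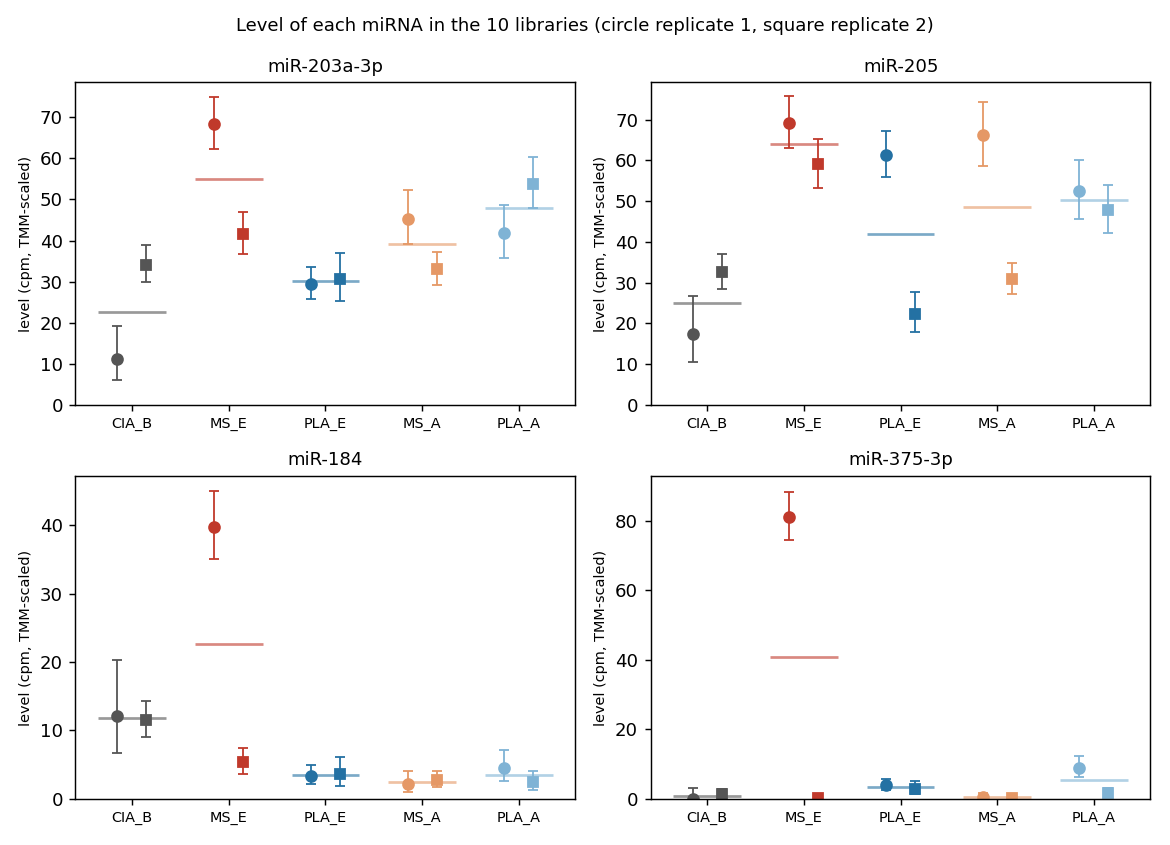
Level of each member in cpm with TMM scaling (vertical axes, linear, from 0) in the 5 groups (horizontal axes), with a circle for replicate 1, a square for replicate 2, an exact 95% Poisson interval of the count as the bar and the group mean as the line. MS_E replicate 1 is highest in all 4 panels, by a wide margin for miR-184 (39.8 cpm) and miR-375-3p (81.2 cpm), and both CIA_B libraries lie above the other 7 libraries for miR-184.

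miR-203a-3p, the keratinocyte miRNA, was counted 13 and 232 times in replicates 1 and 2 of CIA_B, 443 and 266 times in MS_E with 191 and 271 times in MS_A, and 220 and 111 times in PLA_E with 168 and 295 times in PLA_A. This gave 11.2 and 34.1 cpm in CIA_B, 68.4 and 41.5 cpm in MS_E with 45.3 and 33.0 cpm in MS_A, and 29.5 and 30.6 cpm in PLA_E with 41.8 and 53.8 cpm in PLA_A. The lowest value belongs to the smallest library, and both MS_E and both PLA_A libraries lie above both CIA_B libraries. The group means ran from 55.0 ± 19.0 cpm in MS_E through 47.8 ± 8.44 in PLA_A, 39.2 ± 8.68 in MS_A and 30.05 ± 0.806 in PLA_E to 22.7 ± 16.2 in CIA_B (SD, n = 2 each). Of the neighbours in this order, only MS_A and PLA_E did not overlap. The order depends on the scaling. With library size only, PLA_A (53.3 cpm) came before MS_E (50.7 cpm), and PLA_E (35.7 cpm) came before MS_A (34.5 cpm) and overlapped it.

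miR-205, the miRNA of the basal epithelium, was counted 20 and 221 times in CIA_B, 448 and 378 times in MS_E with 279 and 253 times in MS_A, and 458 and 81 times in PLA_E with 211 and 262 times in PLA_A. Its levels were 17.3 and 32.5 cpm in CIA_B, 69.2 and 59.0 cpm in MS_E with 66.2 and 30.8 cpm in MS_A, and 61.4 and 22.3 cpm in PLA_E with 52.5 and 47.8 cpm in PLA_A. The libraries of PLA_E and of MS_A lie far apart, so that these groups overlap CIA_B, while both MS_E and both PLA_A libraries lie above it. The means were 64.1 ± 7.17 cpm in MS_E, 50.2 ± 3.39 in PLA_A, 48.5 ± 24.996 in MS_A, 41.9 ± 27.6 in PLA_E and 24.9 ± 10.7 in CIA_B (SD, n = 2 each), and of the neighbours only MS_E and PLA_A did not overlap. With library size only, MS_E and PLA_A overlapped, and MS_A and CIA_B were the only neighbours that did not.

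miR-184, the miRNA of cornea and epidermis, was counted 14 and 78 times in CIA_B, 258 and 34 times in MS_E with 9 and 22 times in MS_A, and 25 and 13 times in PLA_E with 18 and 13 times in PLA_A. Its levels were 12.1 and 11.5 cpm in CIA_B, 39.8 and 5.31 cpm in MS_E with 2.13 and 2.68 cpm in MS_A, and 3.35 and 3.59 cpm in PLA_E with 4.48 and 2.37 cpm in PLA_A. The CIA_B libraries agree closely although their depths differ, and 7 of the 8 libraries after therapy lie below both of them, at 2.13 to 5.31 cpm. The exception, MS_E replicate 1, lies above all others. miR-184 was chosen with these values known, and the share of all miRNAs with 7 such libraries was not taken. The means were 22.6 ± 24.4 cpm in MS_E, 11.8 ± 0.456 in CIA_B, 3.47 ± 0.167 in PLA_E, 3.43 ± 1.49 in PLA_A and 2.41 ± 0.386 in MS_A (SD, n = 2 each), and of the neighbours only CIA_B and PLA_E did not overlap.

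miR-375-3p, the miRNA of neuroendocrine and secretory cells, was counted 0 and 10 times in CIA_B, 526 times and 1 time in MS_E with 2 times in either library of MS_A, and 29 and 10 times in PLA_E with 36 and 9 times in PLA_A. Its levels were 0 and 1.47 cpm in CIA_B, 81.2 and 0.156 cpm in MS_E with 0.474 and 0.244 cpm in MS_A, and 3.89 and 2.76 cpm in PLA_E with 8.97 and 1.64 cpm in PLA_A. Apart from MS_E replicate 1 it held at most 36 counts, with the highest values in PLA_A replicate 1 and PLA_E replicate 1, and both MS_A libraries, MS_E replicate 2 and CIA_B replicate 1 held no more than 3 counts. The means were 40.7 ± 57.3 cpm in MS_E, 5.30 ± 5.18 in PLA_A, 3.32 ± 0.797 in PLA_E, 0.735 ± 1.04 in CIA_B and 0.359 ± 0.163 in MS_A (SD, n = 2 each). PLA_E and CIA_B were the only neighbours whose measured values did not overlap, and with 0 counts in CIA_B replicate 1, counting error leaves it unsettled whether they do.

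Counting error alone covers the difference between the libraries of a group in some cases and not in others. The exact Poisson intervals of the pair of libraries were separate in 3 of 5 groups for miR-203a-3p, 3 for miR-205, 1 for miR-184 and 2 for miR-375-3p. For miR-184 the group with separate intervals was MS_E, and in the other 4 groups its libraries differed by less than counting could show.

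**Figure D2:**
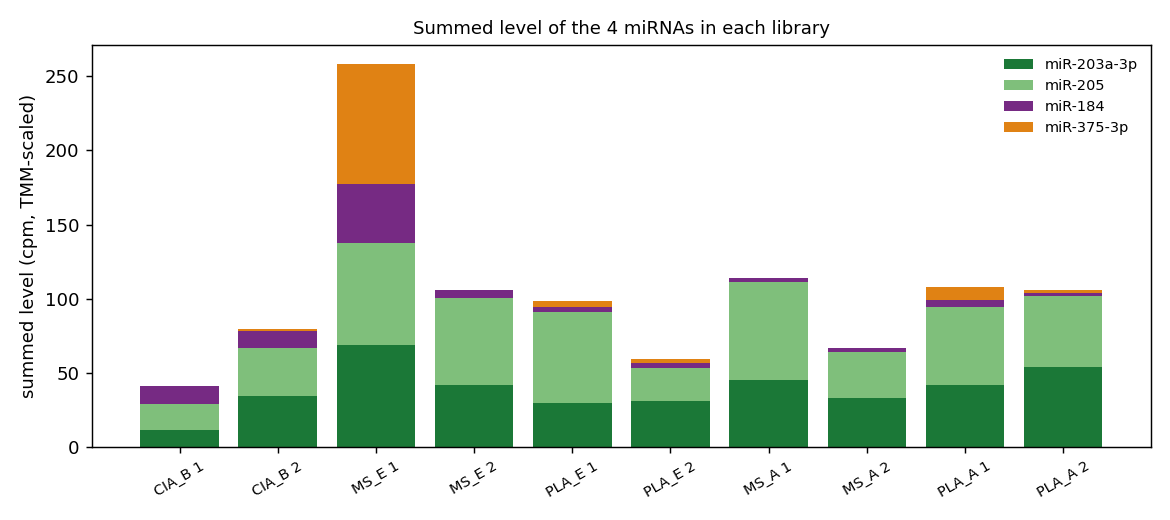
Summed level of the 4 members in cpm with TMM scaling (vertical axis, from 0) in each of the 10 libraries, divided by member. The sum is 259 cpm in MS_E replicate 1 and at most 114 cpm in any other library, and the share of miR-203a-3p with miR-205 is lowest there, at 53.2% of the members' reads.

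The summed level of the members ran from 40.7 cpm in CIA_B replicate 1 to 259 cpm in MS_E replicate 1, with a median of 102 cpm and a second highest value of 114 cpm. miR-203a-3p and miR-205 made up 53.2% of the members' reads in MS_E replicate 1 and 70.2% to 97.7% in the other libraries. miR-184 gave 29.8% and 14.4% of them in CIA_B, 15.4% and 5.01% in MS_E and 1.87% to 6.05% in the 6 other libraries. miR-375-3p gave 31.4% in MS_E replicate 1 and 0 to 8.31% in the others. The share of miR-184 was thus highest in both CIA_B libraries and MS_E replicate 1, and that of miR-375-3p in MS_E replicate 1. Ratios of counts within a library do not depend on the scaling. There were 0.480 to 1.37 reads of miR-203a-3p per read of miR-205 (median 0.893), with both extremes in PLA_E. Per read of miR-205 there were 0.700 and 0.353 reads of miR-184 in CIA_B, 0.576 and 0.0899 in MS_E and 0.0323 to 0.160 in the other libraries. By this ratio both CIA_B libraries lie above every library after therapy but MS_E replicate 1. It uses the values by which miR-184 was chosen, and the divisor miR-205 had its lowest group mean in CIA_B (24.9 cpm), which raises the ratio there.

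The comparisons ask how the tissue changed from before therapy to 1 h and 34 days, and whether stimulation differed from placebo at either time. Fold changes come from edgeR's quasi-likelihood fit on all 10 libraries, and the study's thresholds were applied, a change over 2-fold with p under 0.05 before adjustment. Of the 40 pairs of a member and a comparison, 7 passed, where 128 of the 3590 pairs of any miRNA tested did (3.57%). Those 7 pairs are of miR-184 or miR-375-3p, in comparisons that use the counts by which these names were chosen. The share of members that passed is therefore no test, and neither are the adjusted p values of these members below. None of the 359 miRNAs reached an adjusted p under 0.05 in any of the 10 comparisons in edgeR (Benjamini-Hochberg over all 359, smallest 0.373), and the smallest adjusted p of a member was 0.543. At an unadjusted p under 0.05 there were 2 to 27 miRNAs per comparison in edgeR. In DESeq2, 3 member comparisons had an adjusted p under 0.05, namely miR-375-3p in MS_A against MS_E (0.00629) and in MS_E against CIA_B (0.0490) and miR-184 in MS_A against MS_E (0.0217), all of which contain MS_E replicate 1. Of all miRNAs, 1.39% had such an adjusted p in DESeq2 in MS_A against MS_E and 2.23% in MS_E against CIA_B. The comparisons with CIA_B share its libraries and are not independent of each other.

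Against CIA_B, miR-184 was the member that passed in MS_A. The log2 fold change was -2.27 (standard error 0.87), from 11.8 to 2.41 cpm, with groups that do not overlap. Of all miRNAs tested, 1.11% passed in this comparison in either direction, and 10.9% had both MS_A libraries below both CIA_B libraries. The value stayed between -2.52 and -2.08 with any 1 of the 4 libraries left out, but it passed the thresholds in none of these fits. It was -2.32 without CIA_B replicate 1, -2.31 without CIA_B replicate 2, -2.08 without MS_A replicate 1 and -2.52 without MS_A replicate 2. It also did not pass in limma-voom, at -2.23. The same miRNA stood at -1.76 (standard error 0.85) in PLA_E and -1.78 (0.86) in PLA_A against CIA_B and did not pass in either, where 0.557% and 7.24% of all miRNAs passed and 9.47% and 15.6% lay wholly below CIA_B. On only the libraries compared both passed, and PLA_A also in DESeq2 and without the filter. In the rats at 1 h after stimulation it was 0.94 (0.82) with MS_E replicate 1 and -1.21 (0.69) without it, neither of which passed, and 1.76 without MS_E replicate 2, which did. The 4 groups after therapy, averaged, differed from CIA_B by -1.22 (0.62). This passed only when an MS_E library was left out, at -1.76 without MS_E replicate 1 and -1.01 without MS_E replicate 2, and 4.46% of all miRNAs passed with all libraries.

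The level of miR-184 before therapy rests on 14 counts in a library of low depth and 78 in another. The position of the 7 libraries below CIA_B did not depend on the scaling. With the size factors of DESeq2 they held 2.00 to 5.15 cpm against 11.6 and 12.5 cpm, and with library size only 1.44 to 6.61 against 9.25 and 12.2 cpm. They include both arms and both times.

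miR-203a-3p and miR-205 passed in none of the 10 comparisons of the fit on all libraries. With the library split as a term, miR-203a-3p passed in MS_E (1.31) and PLA_A (1.14) against CIA_B and miR-205 in MS_E (1.35). With the stricter filter, a mean count of 100 or more, both passed in MS_E (1.43 and 1.51). More miRNAs passed in general with the split, 41 of 359 in MS_E and 49 in PLA_A, against 23 and 26 without it. With the stricter filter 19 of 184 passed in MS_E. Against CIA_B, miR-203a-3p had log2 fold changes of 1.24 (standard error 0.58) in MS_E, 0.75 (0.57) in MS_A, 0.37 (0.57) in PLA_E and 1.04 (0.57) in PLA_A. For miR-205 these were 1.34 (0.62), 0.94 (0.62), 0.73 (0.62) and 0.99 (0.62). All 8 values are above 0, and they share the CIA_B libraries, the first of which has 13 and 20 counts of these miRNAs. Without that library miR-203a-3p stood at 0.65 in MS_E, 0.10 in MS_A, -0.26 in PLA_E and 0.41 in PLA_A, and miR-205 at 0.93, 0.47, 0.30 and 0.53. Leaving out a library of the other group lowered miR-205 further in places, to -0.17 in PLA_E without PLA_E replicate 1 and 0.31 in MS_A without MS_A replicate 1. Without CIA_B replicate 2, when the lone small library stands for the group and is assumed to vary like the other groups, miR-203a-3p passed in MS_E at 2.29, in MS_A at 1.797, in PLA_A at 2.09 and in the average of the groups after therapy at 1.90. miR-203a-3p also passed in MS_E at 1.55 without MS_E replicate 2. Of all miRNAs 6.41% passed in MS_E against CIA_B, 18.4% lay wholly above CIA_B in MS_E and 20.9% in PLA_A, as miR-203a-3p and miR-205 did.

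**Figure D3:**
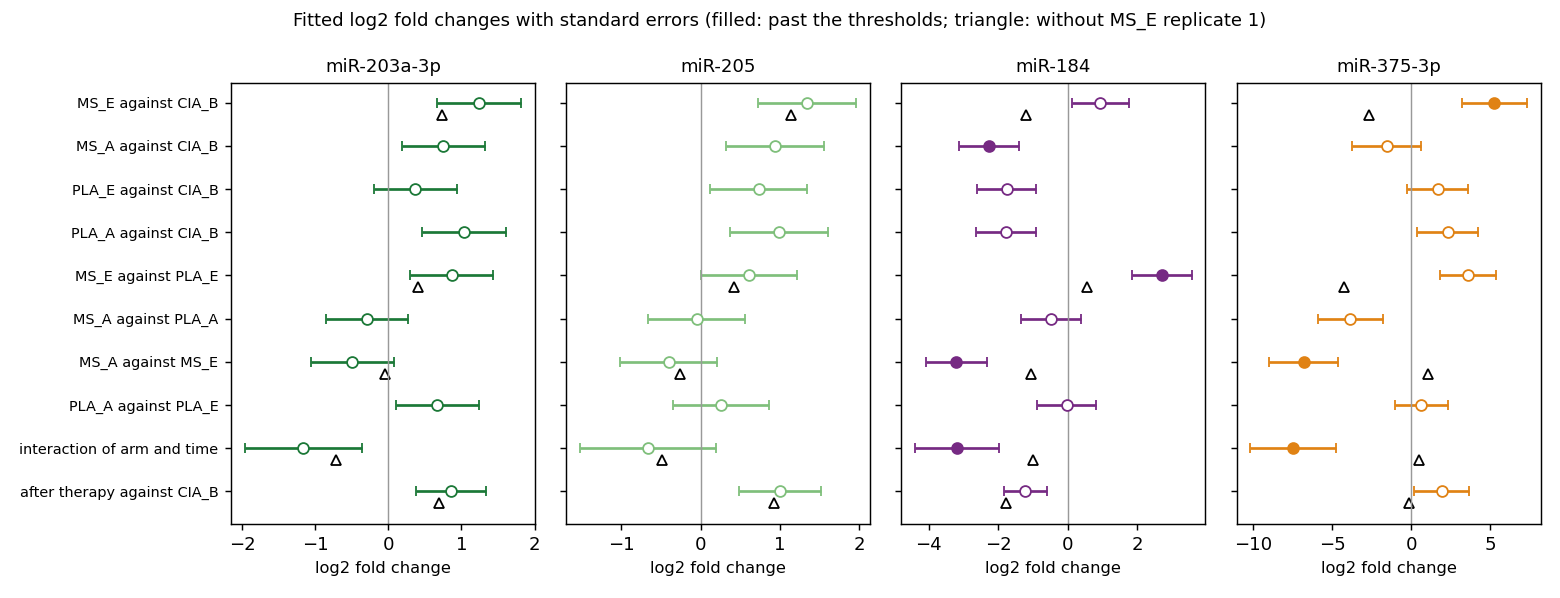
Fitted log2 fold changes of each member (horizontal axes) in the 10 comparisons (rows), with standard errors as bars, filled points for values past the thresholds and triangles for the value without MS_E replicate 1. All filled points but miR-184 in MS_A against CIA_B (-2.27) contain MS_E replicate 1 and none of their triangles passed, and values of miR-375-3p that involve MS_A depend on the prior count because both MS_A libraries hold 2 counts.

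In MS_E against CIA_B, miR-375-3p passed at 5.26 on the log2 scale (standard error 2.04), and this rests on MS_E replicate 1, without which 1 count is left in MS_E, the fitted value was -2.68 (1.70) and it did not pass. It did not pass with the replicate block or in limma-voom either. It also did not pass without CIA_B replicate 1, at 4.79, or without CIA_B replicate 2, which leaves a library at 0 to compare with, and it passed without MS_E replicate 2, at 6.22. Against PLA_E the value in MS_E was 3.59 (1.79) and did not pass. It passed in opposite directions with either MS_E library left out, at -4.29 without replicate 1 and 4.59 without replicate 2, so that the direction follows the library that is kept. The former rests on 1 count in MS_E replicate 2 against 39 in PLA_E, a pooled ratio of 22.5 in favour of PLA_E (exact 95% interval 3.81 to 912, counting error only). With all libraries it passed in DESeq2 and without the filter on low values. The averaged groups after therapy stood at 1.92 (1.73) against CIA_B and passed only without MS_E replicate 2, at 2.13. The placebo groups stood at 1.66 (1.92) in PLA_E and 2.31 (1.92) in PLA_A against CIA_B, and neither passed. CIA_B replicate 1, with 0 counts, allows a level above that of PLA_A replicate 2.

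Between the arms at 1 h, miR-184 stood 2.70 higher after stimulation than after placebo on the log2 scale (standard error 0.86) and passed, where 3.9% of all miRNAs passed in either direction. Both MS_E libraries, at 39.8 and 5.31 cpm, lie above both PLA_E libraries, at 3.35 and 3.59 cpm, as for 16.4% of all miRNAs. Leaving out MS_E replicate 1 gave 0.55 (0.66), leaving out PLA_E replicate 1 or 2 gave 2.65 or 2.81, and none of these passed. Leaving out MS_E replicate 2 gave 3.52, which did. In limma-voom it did not pass, at 2.05. miR-203a-3p and miR-205 differed by 0.87 (0.57) and 0.61 (0.61) and did not pass.

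Between the arms at 34 days, no member passed the thresholds, where 1.95% of all miRNAs did. The log2 fold changes in MS_A against PLA_A were -0.29 (standard error 0.56) for miR-203a-3p, -0.05 (0.61) for miR-205 and -0.48 (0.86) for miR-184, all with an adjusted p of 0.999 in edgeR. For miR-375-3p the fitted value did not pass (adjusted p = 0.999 in edgeR), and it passed in DESeq2 and in the fit on only the libraries compared. Both MS_A libraries hold 2 counts of it, so the ratio of counts per scaled library size is given with its interval. Pooled over the libraries, the level in PLA_A was 14.7 times that in MS_A, 45 counts against 4 (exact 95% interval 5.36 to 56.3, counting error only). This ratio was 5.09 (1.42 to 22.6) without PLA_A replicate 1 and 27.8 (9.98 to 108) without PLA_A replicate 2. The measured values of both PLA_A libraries, 8.97 and 1.64 cpm, lie above those of both MS_A libraries, as for 12.5% of all miRNAs, and the counting interval of MS_A replicate 1 reaches 1.71 cpm.

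From 1 h to 34 days of stimulation, miR-184 and miR-375-3p passed as lower in MS_A than in MS_E, where 3.62% of all miRNAs passed as lower. For miR-184 the log2 fold change was -3.21 (standard error 0.88), with both MS_A libraries below both MS_E libraries, as 15.6% of all miRNAs are. It was -4.02 without MS_E replicate 2 but -1.07 (0.65) without MS_E replicate 1, when it did not pass. For miR-375-3p the pooled level in MS_E was 127 times that in MS_A, 527 counts against 4 (exact 95% interval 49.3 to 468, counting error only), and 252 times (97.9 to 929) without MS_E replicate 2. Without MS_E replicate 1, MS_E holds 1 count, and the ratio was 0.485 (0.00984 to 4.90), which gives no direction. The fitted value also did not pass without MS_A replicate 2 or in limma-voom. In the placebo arm no member passed in PLA_A against PLA_E, where 2.79% of all miRNAs did, and the values were 0.67 (0.57) for miR-203a-3p, 0.26 (0.61) for miR-205, -0.03 (0.85) for miR-184 and 0.64 (1.69) for miR-375-3p.

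The interaction, the change from 1 h to 34 days after stimulation minus that after placebo, passed for miR-184 at -3.18 (standard error 1.21) and for miR-375-3p, where 3.34% of all miRNAs passed, each as lower. Neither passed with the replicate block, at -2.79 for miR-184 and -6.09 for miR-375-3p, or in limma-voom, at -2.42 and -3.50. It was -1.16 (0.80) for miR-203a-3p and -0.66 (0.86) for miR-205, which did not pass. Without MS_E replicate 1 the values were -1.001 (0.87) for miR-184 and 0.48 (1.82) for miR-375-3p, the latter fitted on 1 count in MS_E, and neither passed. miR-184 further passed without MS_E replicate 2, at -4.00, and without PLA_A replicate 2, but not without MS_A replicate 1 (-3.04), MS_A replicate 2 (-3.47), PLA_A replicate 1 (-2.79), PLA_E replicate 1 (-3.13) or PLA_E replicate 2 (-3.26). miR-375-3p passed without MS_E replicate 2 and without PLA_A replicate 2 and in no other fit with a library left out.

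MS_E replicate 1 held more of each member than any other library. Its level of miR-375-3p was 9.06 times that of the next library, of miR-184 3.29 times, of miR-203a-3p 1.27 times and of miR-205 1.04 times. Sorted by this ratio, miR-375-3p is in place 4 of the 359 miRNAs tested, miR-184 in place 8, miR-203a-3p in place 30 and miR-205 in place 54, and 60 miRNAs were highest in this library. The excess was thus large for miR-375-3p and miR-184 and close to the next library for the other pair. With library size only, miR-184 and miR-375-3p stayed highest in this library at 28.9 and 58.9 cpm, while miR-205 was highest in PLA_E replicate 1 at 86.8 cpm and miR-203a-3p in PLA_A replicate 1 at 55.1 cpm.

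**Figure D4:**
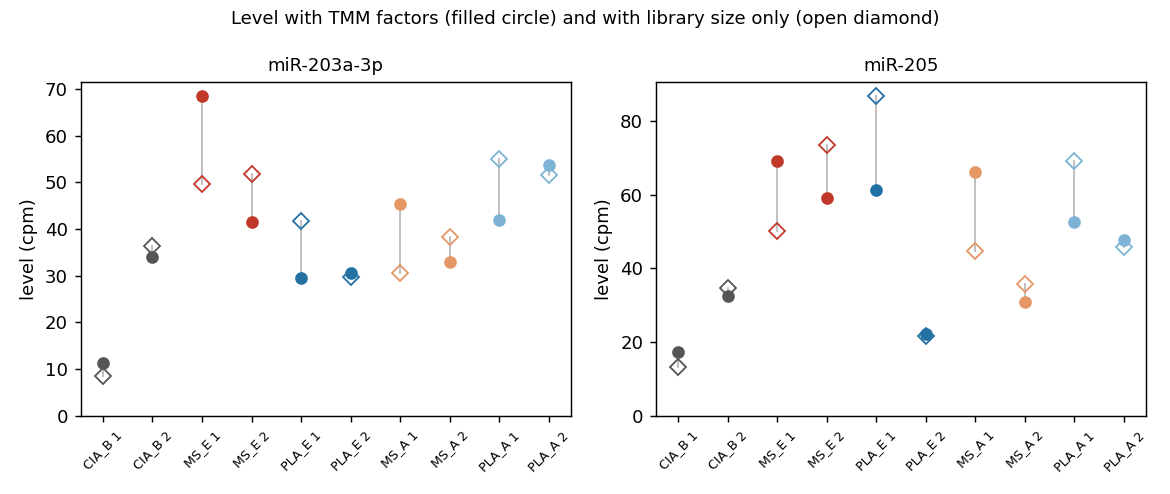
Level of miR-203a-3p and miR-205 in cpm (vertical axes, from 0) in each library, with TMM factors (filled circles) and with library size only (open diamonds). MS_E replicate 1 is highest in both panels with TMM factors, at 68.4 and 69.2 cpm, and in neither with library size only, at 49.6 and 50.2 cpm.

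Other epithelial miRNAs were followed in lists that were also chosen with earlier results known. The miR-200 family, which holds epithelial cells in their state by repressing ZEB1 and ZEB2, has 5 names, all listed and 4 tested. Its summed level was 310 cpm in MS_E replicate 1 and 4.26 to 40.3 cpm in the others, and its most abundant member there, miR-141-3p, had 220 cpm against at most 26.6 cpm elsewhere. All 4 passed as higher in MS_E against CIA_B, where 5.29% of all miRNAs passed as higher. The sizes of miR-200b-3p and miR-200c-3p there are set by the prior count, since CIA_B holds 0 and 0.147 cpm of each, and no median of the list is given. Without MS_E replicate 1, only miR-200b-3p passed in MS_E against CIA_B, miR-141-3p stood at 0.36 on the log2 scale and miR-200a-3p at 2.07. miR-200a-3p also did not pass without CIA_B replicate 2 (2.33), and miR-200c-3p did not without CIA_B replicate 1 or 2. miR-141-3p and miR-200b-3p were higher in MS_E than in PLA_E, at 4.73 and 3.56, and lower in MS_A than in MS_E, at -4.46 and -3.70. Without MS_E replicate 1 these values were -0.35, 0.12, 0.60 and -0.27, and none passed. The first comparison was also lost for miR-141-3p without PLA_E replicate 1 (5.19) or 2 (4.49) and for miR-200b-3p without PLA_E replicate 2 (3.03). The second was lost for miR-141-3p without MS_A replicate 1 (-4.57) or 2 (-4.58) and for miR-200b-3p without MS_A replicate 1 (-3.43). miR-141-3p also passed as lower in the interaction (-6.49), and not without MS_E replicate 1 (-1.35). In the average after therapy miR-200b-3p and miR-200c-3p passed as higher. The former passed without MS_E replicate 1 as well, but not without CIA_B replicate 1 or 2, PLA_A replicate 2 or PLA_E replicate 1, and the latter, with 1 library left out, passed only without MS_E replicate 2, PLA_A replicate 2 or PLA_E replicate 2.

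The miRNAs of ciliated epithelium, miR-34b-5p, miR-34c-5p, miR-449a-5p and miR-449c-5p, drive the formation of motile cilia and are known from airway, oviduct and testis. Their sum was 1839 cpm in MS_E replicate 1 and 1.73 to 19.0 cpm in the others. miR-34c-5p alone had 1496 cpm against at most 17.6 cpm, and miR-449a-5p had 258 cpm against at most 3.62 cpm. Both of these, the only tested names of the list, passed in MS_E against CIA_B and against PLA_E, in MS_A against MS_E and in the interaction. Of all miRNAs 6.41%, 3.9%, 3.9% and 3.34% passed in these comparisons, in that order. Without MS_E replicate 1, neither name passed in any of them. With 1 library of its groups left out, both passed in the interaction only without MS_E replicate 2, with values of -7.51 to -5.81 for miR-34c-5p and -6.77 to -5.46 for miR-449a-5p when a library of PLA_E, MS_A or PLA_A was left out. miR-34c-5p also did not pass in MS_E against CIA_B without CIA_B replicate 1 (6.19), in MS_A against MS_E without MS_A replicate 2 (-5.58) or in MS_E against PLA_E without PLA_E replicate 1 (5.65) or 2 (6.65), and miR-449a-5p not in the last without PLA_E replicate 2 (5.24). Of the miRNAs tested, 5 were more than 5 times as high in MS_E replicate 1 as in any other library, and they were miR-34c-5p (85.2 times), miR-449a-5p (71.4 times), miR-200b-3p (15.0 times), miR-375-3p (9.06 times) and miR-141-3p (8.25 times). The library with the excess of miR-375-3p and miR-184 therefore also held miRNAs of ciliated epithelium, and their part in the result was not tested.

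The sums of the other lists did not stand out to this degree. miR-31a-5p, miR-183-5p, miR-96-5p and miR-182, known from keratinocytes, hair follicle or sensory epithelium, summed to 75.6 to 617 cpm with the highest value in MS_A replicate 1 and 372 cpm in MS_E replicate 1. miR-182 makes most of this sum, and the other 3 names were highest in MS_E replicate 1, with 25.01 cpm of miR-31a-5p against at most 9.96 cpm elsewhere and 71.6 cpm of miR-183-5p against at most 45.8 cpm. None of the 3 tested passed in any comparison. miR-192-5p, miR-194-5p and miR-215, of gut and kidney epithelium, summed to 414 to 1329 cpm with the highest value in PLA_E replicate 2, and only miR-215 passed, as lower in PLA_A than in PLA_E (-3.58 on the log2 scale), though neither without PLA_E replicate 1 (-1.65) nor without PLA_A replicate 1 (-3.05). The neuroendocrine and neural list, which bears on miR-375, summed to 32.8 to 129 cpm, with 76.4 cpm in MS_E replicate 1 and the highest value in PLA_A replicate 1, and none of its 2 tested names passed. The 2 melanocyte miRNAs summed to 170 to 865 cpm, highest in MS_E replicate 1, and passed in none.

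Markers of the labelled tissue and of blood moved as follows. The skeletal muscle list, miR-1-3p, miR-133a-3p, miR-133b-3p and miR-206-3p, made 8.39% of the scaled reads in MS_E replicate 1, its lowest value, and up to 26.8%, in MS_A replicate 2, so that muscle miRNAs were abundant in every library, and none of the 4 passed. The erythroid list summed to 14.7 to 84.4 cpm, highest in MS_E replicate 1, with miR-451-5p passing as higher in MS_E against CIA_B at 1.62 on the log2 scale and miR-144-3p as higher in PLA_A at 3.11. Without MS_E replicate 1, miR-451-5p was at 0.25 and did not pass, nor did it without either CIA_B library, at 1.93 without replicate 1 and 1.32 without replicate 2. miR-144-3p passed with none of its 4 libraries left out, at 2.77 to 3.86. The leukocyte list summed to 12753 cpm in PLA_A replicate 1 and 585 to 1788 cpm in the others. Against CIA_B, miR-223-3p, known from granulocytes and monocytes, passed as higher in MS_E (1.77 on the log2 scale) and in MS_A (1.46), but in neither without CIA_B replicate 1, at 1.20 and 0.86, nor in MS_A without MS_A replicate 1 (1.39) or 2 (1.44). The other 3 tested names passed in PLA_A, and without PLA_A replicate 1 miR-142-3p went from 6.13 to 2.69 and miR-142-5p from 4.36 to 1.801, both still past the thresholds, and miR-150-5p from 2.88 to 0.25, which did not pass. miR-150-5p also did not pass without CIA_B replicate 1 (3.12) or 2 (2.56). miR-142-3p and miR-142-5p further passed as lower in MS_A than in PLA_A, at -4.28 and -3.71, and as higher in PLA_A than in PLA_E, at 3.54 and 3.39, and in none of these without PLA_A replicate 1, where they stood at -0.84, -1.18, 0.14 and 0.87. miR-142-3p also did not pass without MS_A replicate 1 (-3.73) or PLA_E replicate 2 (2.62). miR-142-5p passed as lower in the interaction (-3.59) but not without PLA_A replicate 1 (-1.13) or PLA_E replicate 2 (-3.22), and miR-142-3p and miR-223-3p passed as higher in the average after therapy, at 3.14 and 1.35. Of the latter, miR-142-3p did not pass without CIA_B replicate 1 (2.96), CIA_B replicate 2 (3.27) or PLA_E replicate 1 (2.64), and miR-223-3p not without CIA_B replicate 1 (0.76). PLA_A replicate 1 is also the library with the second highest level of miR-375-3p, at 8.97 cpm. The fibroblast and smooth muscle list summed to 28222 to 103592 cpm with no call. The part of these cells in the levels of the members was not tested.

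By Pearson's r of log2(cpm + 1) over the 10 libraries, the 3 tested miRNAs most like each member differed between members. These are descriptions over libraries that share their scaling and the division by miR-1-3p. miR-203a-3p and miR-205 are lowest in CIA_B replicate 1, the smallest library, and no r here or below was taken without it. miR-205 was most like miR-222-3p (r = 0.931, Spearman's rho = 0.927), miR-19b-3p (0.908, 0.806) and miR-223-3p (0.884, 0.842), and r stayed at 0.922, 0.893 and 0.872 without MS_E replicate 1. miR-203a-3p was most like miR-3559-5p (0.903, 0.891), miR-223-3p (0.844, 0.539) and miR-19b-3p (0.839, 0.830), with r of 0.966, 0.837 and 0.807 without that library. miR-184 was most like miR-381-3p (0.805, 0.806), miR-501-3p (0.780, 0.697) and miR-362-5p (0.771, 0.782), with r of 0.880, 0.554 and 0.715 without it. miR-375-3p was most like miR-92b-3p (0.927, 0.806), miR-141-3p (0.926, 0.745) and miR-92a-3p (0.895, 0.879), with r of 0.797, 0.725 and 0.839 without it. No member was among the nearest 3 of another. miR-3559-5p, the nearest to miR-203a-3p, held only 0 to 3.56 cpm over the libraries, so its r rests on few reads.

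Among the members themselves, miR-203a-3p and miR-205 were the most alike pair by Pearson's r (0.782, Spearman's rho 0.648, and r = 0.743 without MS_E replicate 1). miR-184 and miR-375-3p had r = 0.598 with that library and -0.184 without it. miR-184 had r = 0.023 with miR-203a-3p and -0.024 with miR-205, and -0.656 and -0.542 without it. The 4 miRNAs therefore did not move as 1 group over these libraries.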

How the data were processed

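Small RNA was sequenced from tissue of rats with CIA, 2 libraries in each of 5 groups, grouped by the labels. The authors called bases with CASAVA 1.8, discarded reads under 18 bases, aligned the rest with Bowtie to rn4 and to rat miRBase 18, and deposited counts per precursor made with miRDeep2, whole numbers without normalization. A joined table, whose 20 columns of values match no label, was not used. The largest count per mature miRNA was taken here. Fits used edgeR 4.0.16 (TMM factors, quasi-likelihood, 1 fit of group means, prior count of 0.125) on the 359 miRNAs that reached 1 cpm in 5 or more of the 10 libraries in R 4.3.3, with limma 3.58.1 (voom) and DESeq2 1.42.0 as alternatives. The test was checked on simulated data. An exact permutation test of 2 libraries against 2 cannot go below a two-sided p of 0.333, and none was made. Depth and its limits are given above. The members, the lists and the alternatives were chosen with earlier results of these data known. Named miRNAs are the members, arms of their hairpins and of the antisense hairpin, the 3 most alike miRNAs of each, and list members that passed or held most of their list. RefSeq sequences matched 645 of the 723 names. Replicate numbers were not used to pair the libraries in the main fit. Intervals came from scipy 1.17.1, plots from matplotlib 3.10.9 and tables from pandas 2.3.3 and numpy 2.4.6 under Python 3.11.15.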

Additional observations from a re-analysis of the deposited data

How the results depend on the processing

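The number of members past the thresholds in a comparison depended on the tool and on single libraries. Brackets give the count over all miRNAs in the same fit, of 359, or of 184 with a mean of at least 100 counts and 579 with no filter. In MS_E against CIA_B it was 1 (23), and 0 with limma-voom (19) and with the replicate block (21). It was 2 with a mean of at least 100 counts (19) and 3 with the library split as a term (41). In MS_A against CIA_B it was 1 (4), and 0 with limma-voom (4) and with a mean of at least 100 counts (2). In PLA_E against CIA_B it was 0 (2), and 1 with only the libraries compared (6). In PLA_A against CIA_B it was 0 (26). It was 1 there with DESeq2 (35), with no filter (27), with the library split (49) and with only the libraries compared (27). In MS_E against PLA_E it was 1 (14), and 0 with limma-voom (9) and a mean of at least 100 counts (8), and 2 with DESeq2 (19) and no filter (29). In MS_A against PLA_A it was 0 (7), and 1 with DESeq2 (9) and only the libraries compared (8). In MS_A against MS_E it was 2 (14), 1 with limma-voom (11) and 0 with a mean of at least 100 counts (11). The interaction gave 2 (12), and 0 with limma-voom (4), a mean of at least 100 counts (7) and the replicate block (7). The mean of at least 100 counts leaves 184 miRNAs and removes miR-184 and miR-375-3p before the test, and otherwise the cause was not tested. With 1 library left out at a time, the counts ran from 0 to 3 in MS_E against CIA_B, 0 to 1 in MS_A and in PLA_A against CIA_B, 0 to 2 in MS_E against PLA_E, MS_A against MS_E, the interaction and the average after therapy, and 0 to 0 in PLA_E against CIA_B, MS_A against PLA_A and PLA_A against PLA_E. Without MS_E replicate 1, which leaves 1 count of miR-375-3p in MS_E, its fitted values took the opposite sign, -2.68 in MS_E against CIA_B, -4.29 in MS_E against PLA_E, 1.04 in MS_A against MS_E and 0.48 in the interaction. The last pair compare 1 count with 2 in either MS_A library and give no direction. The other end of its range with 1 library left out was 4.59 in MS_E against PLA_E, -7.82 in MS_A against MS_E and -8.46 in the interaction, each without MS_E replicate 2, and 10.73 in MS_E against CIA_B without CIA_B replicate 2, a fit against a library at 0 whose size is set by the prior count. Without MS_E replicate 2, MS_E is replicate 1 alone, the library by which names were chosen, and the spread comes from the other groups. The values of these fits are therefore a description and no test.

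The replicate numbers were checked by the correlation of deviations from group means, which ran from -0.554 to 0.634 between groups. It was positive between groups in which the same replicate number holds more miR-1-3p, and negative between the others. Since it follows that division, the check cannot tell whether replicate numbers pair the libraries. Crossing the pairs by their miR-1-3p level, which is the library split term, gave the counts above, and the replicate block changed no other count of members. Size factors of DESeq2 in edgeR, library size only, summed counts and a prior count of 2, which was added after the data were seen, left all 10 counts of members as they were. Over all miRNAs the counts past the thresholds moved by more than 1.5 times in every comparison, with ranges of 16 to 41 (23 in the report) in MS_E, 2 to 12 (4) in MS_A, 1 to 9 (2) in PLA_E and 9 to 49 (26) in PLA_A, each against CIA_B, 7 to 35 (14) in MS_E against PLA_E, 1 to 14 (7) in MS_A against PLA_A, 4 to 32 (14) in MS_A against MS_E, 1 to 22 (10) in PLA_A against PLA_E, 3 to 17 (12) in the interaction and 3 to 21 (16) in the average after therapy. Depth limits miR-375-3p most, which had no more than 3 counts in 4 libraries.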

Other observations

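Whether miR-203a-3p was higher or lower in the library of a group that holds more miR-1-3p depended on the scaling. With TMM factors it was higher in that library in 0 of 5 groups, and with library size only in 4 of 5. The order of its libraries depended on the scaling in 4 of 5 groups, that of miR-205 in 1 (MS_E), that of miR-184 in 2 (CIA_B and PLA_E) and that of miR-375-3p in 0.

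The smallest library, CIA_B replicate 1, held the largest share of miR-184 among the reads of the 4 members, 29.8% of 47 reads, and the lowest level of miR-203a-3p and miR-205.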
